A study of Homo sapiens with 4 samples.

Results

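The human mitochondrial genome carries 37 genes, and all 37 had a row in the deposited count table of 63677 genes. They were chosen by name alone, as the rows whose Ensembl identifier carries a symbol beginning with MT-, and no measured value was used. They comprise 13 mRNAs that encode subunits of the respiratory chain and of ATP synthase, 2 rRNAs of the mitochondrial ribosome and 22 tRNAs. The cells were HCT116, an established human colorectal cancer line, so all libraries come from a single line. In the anti-GAA group (labelled Antisense) the cells received an antisense oligonucleotide (ASO) against RNA with GAA repeats, a gapmer meant to direct RNase H to its target. The control group (labelled Control) received a non-targeting ASO. Each group had 2 libraries, numbered replicate 1 and replicate 2, and both groups went through the same transfection for 48 h by the labels. No untreated library was part of the comparison. The study's methods describe duplicate experiments, and its reporting summary states that experiments were repeated independently. Nothing in the labels says whether these replicates came from separate cultures, so the p-values measure only the spread between these libraries. The labels name a total RNA kit, whereas the study's methods describe a stranded mRNA kit and a shorter transfection.

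Mitochondrial DNA is a small circle that is transcribed from both strands into long precursors. The tRNAs lie between most of the other genes, and their excision by the mitochondrial RNase P and by ELAC2 releases the mRNAs and rRNAs. Most mitochondrial mRNAs and both rRNAs receive short poly(A) tails, whereas the mature tRNAs end in CCA. By the GENCODE annotation, 28 genes were transcribed from the heavy strand, namely 12 mRNAs, 14 tRNAs and both rRNAs. The other 9 were transcribed from the light strand, namely MT-ND6, a subunit of complex I, and 8 tRNAs. The genes covered 15358 of 16569 bases, and 25 of 36 neighbouring pairs abutted or overlapped.

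All 37 genes were listed at 0 counts in all 4 libraries, 148 of 148 values. The anti-GAA libraries held 10538284 and 17894953 counts on all genes, and the control libraries held 15347298 and 15924742. The share of counts on mitochondrial genes was therefore listed at 0 in every library, for the mRNAs, for the rRNAs and for the tRNAs. A floor of 3 counts corresponds to between 0.168 and 0.285 CPM (counts scaled to a common library total), and it covers counting error only. The zeros held for the 7 mRNAs of complex I subunits (MT-ND1, MT-ND2, MT-ND3, MT-ND4L, MT-ND4, MT-ND5 and MT-ND6). They held for MT-CYB of complex III, for MT-CO1, MT-CO2 and MT-CO3 of complex IV, and for MT-ATP6 and MT-ATP8 of ATP synthase. They also held for the 12S rRNA gene MT-RNR1 and the 16S rRNA gene MT-RNR2. No mitochondrial gene entered a test, no ratio of heavy-strand to light-strand RNA could be formed, and no difference between the anti-GAA and control cells could be measured for any of them. The zeros were not read as a lack of the RNA, since a respiring human line uses these genes and the treatment of mitochondrial reads before deposition is not given in the sources used here.

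The share at 0 was higher for the mitochondrial protein-coding genes than on each of chromosomes 1 to 22 and X, and was matched by chromosome Y. All 13 mitochondrial protein-coding genes (100%) were at 0 in the 4 libraries. On 23 nuclear chromosomes (1 to 22 and X) the share of protein-coding genes at 0 ran from 7.6% on chromosome 22 (32 of 421) to 33.2% on chromosome 21 (71 of 214), with a median of 16.8%. On chromosome Y all 44 protein-coding genes were also at 0, whereas 10 of its 463 genes of any type had counts. Over all chromosomes, 3399 of 19322 protein-coding genes were at 0. The libraries otherwise read as an epithelial line. The 5 epithelial markers were counted in every library, with EPCAM, an epithelial adhesion molecule, at 602 to 776 CPM and the cadherin gene CDH1 at 32.6 to 64.7 CPM. Of 6 markers of other cell types, CD3E, COL1A2 and PECAM1 were at 0, PTPRC and ALB stayed below 1 CPM, and COL1A1 was at 9.49 to 15.5 CPM. Few of the listed nuclear RNAs without a poly(A) tail could be examined. TERC, the telomerase RNA, was at 7.03 to 11.3 CPM and SNORD3A, the U3 small nucleolar RNA, at 1.88 to 3.13 CPM. SCARNA7 had 1 count in anti-GAA replicate 2 and 0 in the other libraries. RN7SL1, RN7SL2, RN7SK, RMRP, RPPH1 and SCARNA2 were not matched to a gene.

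**Figure D1:**
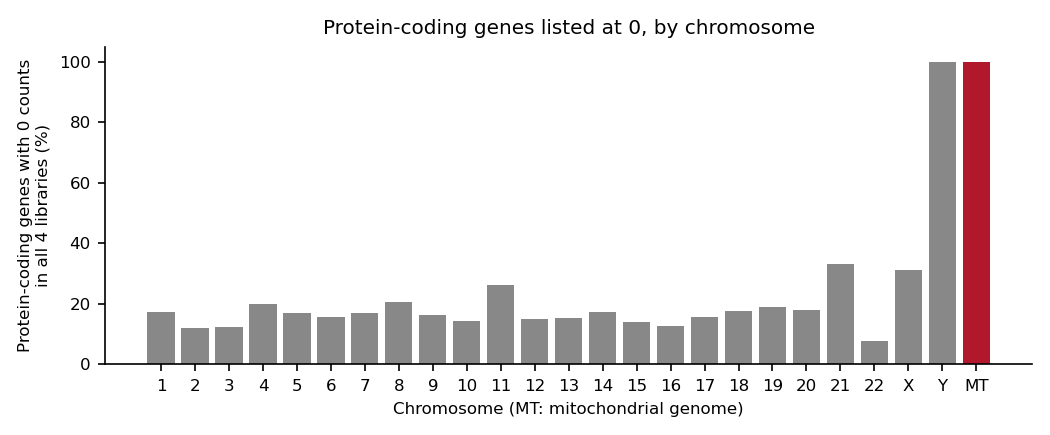
Each bar gives the percent of protein-coding genes on a chromosome (x axis, MT for the mitochondrial genome) that had 0 counts in all 4 libraries (y axis). The mitochondrial bar stands at 100%, as does chromosome Y, whereas chromosomes 1 to 22 and X lie between 7.6% and 33.2%.

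The nuclear genome holds fragments of mitochondrial DNA, so part of a mitochondrial RNA cannot be told from a nuclear copy by its sequence. To see how much, the GRCh38 sequence of each mitochondrial gene was cut into all windows of 50 bases, and each window was searched on both strands of the nuclear chromosomes. Of 13603 windows, 3206 (23.6%) had an exact nuclear copy and 10397 (76.4%) had none. With windows of 75 bases, 13.3% had a copy. The zeros thus also cover genes that had no such copy. MT-ND3 and MT-ND4L had no window with a nuclear copy, and MT-CYB had 1.65%. MT-CO1 had 50.6%, the largest value of the 13 mRNAs, followed by MT-ATP6 with 46.7% and MT-ND2 with 43.6%. Of the rRNAs, MT-RNR1 had 43.6% and MT-RNR2 15.7%. The tRNA genes, at 59 to 75 bases, were either copied whole at this window length, as MT-TQ, MT-TW, MT-TA, MT-TN, MT-TS1, MT-TK and MT-TE were, or matched in part, or had no copy, as for 8 of them.

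**Figure D2:**
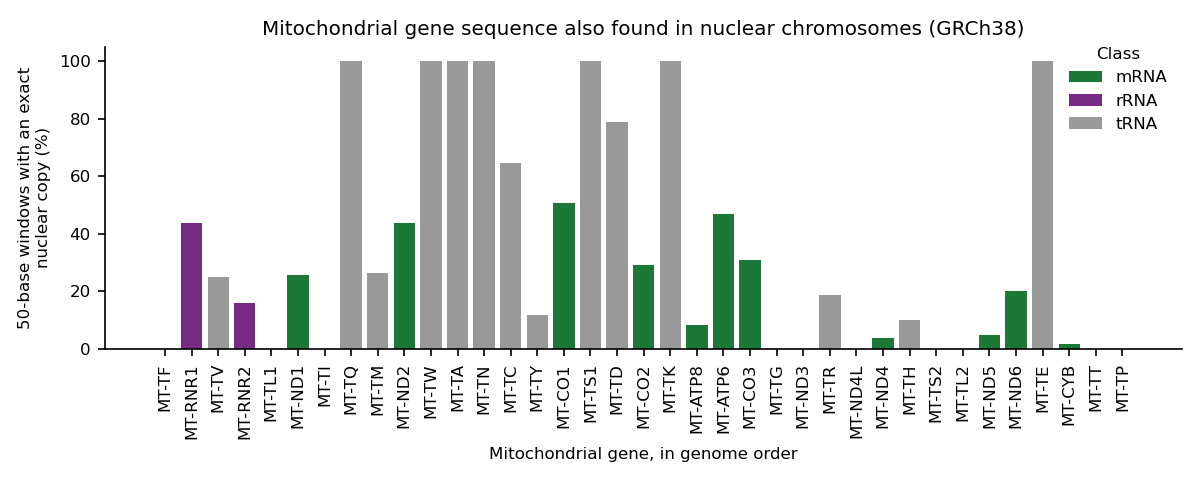
Each bar gives the percent of 50-base windows of a mitochondrial gene (x axis, in genome order) with an exact copy in the nuclear chromosomes of GRCh38 (y axis), coloured by RNA class. MT-CO1 reached 50.6% and MT-ND3 and MT-ND4L stood at 0, while 7 tRNA genes reached 100%.

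Stretches without a nuclear copy are shown, because a read within them would belong to the mitochondrial gene by sequence, and their genes were nonetheless at 0 in every library. They lie within the longest run of such windows in MT-RNR1, MT-RNR2, MT-CO1 and MT-ND6, and every 50-base window inside them lacks an exact nuclear copy. Each is given 5′ to 3′ as its RNA reads, in GRCh38, at chrM:944-1003, chrM:2728-2787 and chrM:6402-6461 on the plus strand and at chrM:14309-14368 on the minus strand.
MT-RNR1: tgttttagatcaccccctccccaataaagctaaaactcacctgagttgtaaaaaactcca
MT-RNR2: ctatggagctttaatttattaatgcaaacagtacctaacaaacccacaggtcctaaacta
MT-CO1: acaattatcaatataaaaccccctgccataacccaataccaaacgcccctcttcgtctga
MT-ND6: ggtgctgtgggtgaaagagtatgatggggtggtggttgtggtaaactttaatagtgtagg
The guanine-rich letters of MT-ND6 reflect its strand. Its RNA sequence was 35.6% G and 7.05% C, whereas that of MT-ATP6, read from the other strand, was 10.4% G and 33.8% C.

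The exact nuclear copies fell into 33 loci on 17 chromosomes, joined within 10000 bases. A single locus, chr1:629084-634924, held 2250 of the 3206 windows (70.2%) and touched 17 mitochondrial genes. The next, chr11:10507887-10509998, held 332 windows (10.4%). The locus on chromosome 1 carries annotated pseudogenes of MT-ND1, MT-ND2, MT-CO1, MT-CO2, MT-ATP6 and MT-CO3 in the mitochondrial order. Of these, MTATP6P1 (ENSG00000248527, chr1:633696-634376, plus strand, an unprocessed pseudogene) had 98.5% identity with MT-ATP6, with 10 differing bases over 681. The stretch of 60 bases with the most differences is shown at chrM:8642-8701 and chr1:633811-633870, with the differing bases in capitals.
MT-ATP6: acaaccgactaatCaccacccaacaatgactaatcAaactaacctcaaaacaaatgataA
MTATP6P1: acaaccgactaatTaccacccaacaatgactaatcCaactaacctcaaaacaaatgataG
Counted from the first base of MT-ATP6, these differences are C129T, A151C and A175G, with the mitochondrial base first. The longest run without a difference was 141 bases.

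Counts were present on nuclear copies although the mitochondrial genes were at 0. Of 389 nuclear copies of the 13 mRNA genes matched by symbol, 28 had at least 1 count and 6 had a mean of at least 1 CPM. All 6 lie in the locus on chromosome 1. Copies of MT-ND3 (21), MT-ND4L (23) and MT-ATP8 (2) had no counts. The sum over all copies was 87.8 and 44.1 CPM in the anti-GAA libraries and 123 and 28.6 CPM in the control libraries, against 0 on the mitochondrial genes. Adding the copies to their mitochondrial genes would thus bring the mitochondrial sum to no more than 123 CPM in any library.

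Most of these counts lay on MTATP6P1. It had 748 and 501 counts in the anti-GAA libraries and 1616 and 170 counts in the control libraries, or 71.0, 28.0, 105 and 10.7 CPM, and between 37.4% and 85.9% of all counts on copies. The groups overlapped, and the replicate 1 library was the higher under both ASOs. The controls differed by 9.86-fold from each other and the anti-GAA libraries by 2.54-fold. The log2 fold change of anti-GAA over control was −0.16 (SE 0.93, adjusted p = 0.996 in edgeR's quasi-likelihood test with Benjamini-Hochberg adjustment). Within replicate 1 the anti-GAA library had 0.674 times the control value and within replicate 2 it had 2.62 times. Without control replicate 1 the log2 fold change was 2.36, with a single control library left. Without anti-GAA replicate 2 it was 0.39, with a single anti-GAA library left, so the direction rested on single libraries.

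The other 5 copies varied less between libraries. MTND1P23, with 99.1% identity to the aligned 36.8% of MT-ND1, was at 3.98 and 3.58 CPM in anti-GAA and 3.84 and 3.77 CPM in control cells. MTND2P28, a copy of MT-ND2, was at 2.94 and 2.57 CPM against 3.32 and 3.26 CPM. These CPM are scaled to total counts, and with TMM factors the groups overlapped for this copy too. MTCO1P12, a copy of MT-CO1, was at 5.12 and 4.69 CPM against 4.82 and 6.28 CPM. MTCO2P12 (0.95 to 1.24 CPM in 3 libraries and 0.879 CPM in control replicate 2) and MTCO3P12 (0.474 to 1.51 CPM) overlapped between the groups. Their log2 fold changes ran from −0.17 (SE 0.36, MTND2P28) to 0.08 (SE 0.33, MTND1P23). Of the 8 copies tested, 0 passed an adjusted p of 0.05 in edgeR or in DESeq2 and 0 passed an unadjusted p of 0.05 in either. At the unadjusted threshold edgeR had 3.46% of all genes lower and 1.02% higher with anti-GAA. In the whole table edgeR called 0.0% of genes after adjustment, and DESeq2 called 0.0331%. Without MTATP6P1, the sum over the copies was 16.8 and 16.1 CPM in anti-GAA and 17.3 and 17.9 CPM in control cells, a mean of 16.4 ± 0.502 (SD, n = 2) against 17.6 ± 0.403 (SD, n = 2). The exact two-sided permutation test gave p = 0.333, the smallest that 2 against 2 libraries allow. Whether reads on the copies came from the nuclear loci or from mitochondrial RNA cannot be told apart with these counts.

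**Figure D3:**
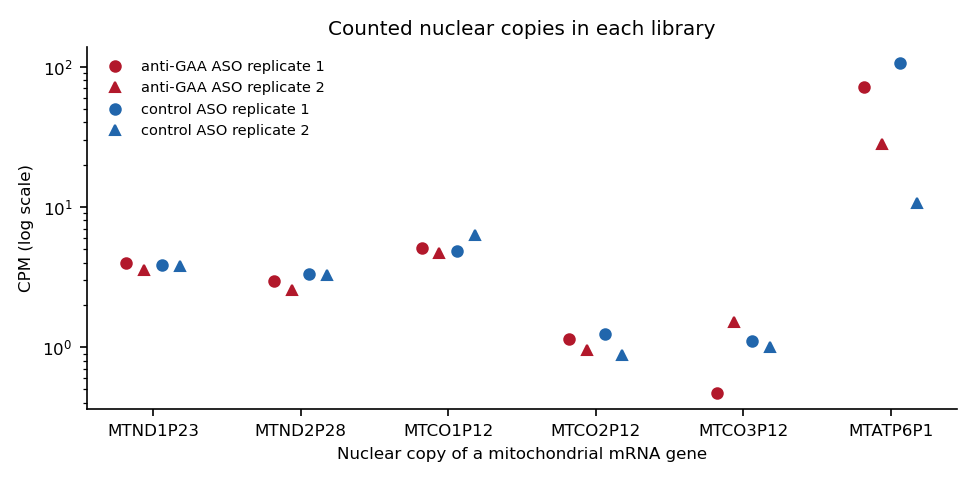
Each point gives the CPM (y axis, log scale) of a nuclear copy of a mitochondrial mRNA gene (x axis) in a single library, red for anti-GAA and blue for control ASO, circles for replicate 1 and triangles for replicate 2. MTATP6P1 spread from 10.7 to 105 CPM with the groups overlapping, while MTND1P23 stayed between 3.58 and 3.98 CPM.

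The anti-GAA ASO is directed at GAA repeats, so the mitochondrial RNA sequences were also searched for them. The longest uninterrupted GAA repeat, in any of its 3 phases, ran from 3 to 7 bases in the 37 genes, and 0 genes had one of 12 bases or more. The longest TTC repeat, which would pair with GAA, was 9 bases, in MT-ND5. Of 14751 tested nuclear genes with a transcript sequence, 6259 (42.4%) held a longer GAA repeat than any mitochondrial gene and 372 (2.52%) held one of at least 12 bases. Nuclear transcripts are often longer, and among 3291 genes whose longest transcript had at most 1812 bases, the length of the longest mitochondrial gene, the shares were 19.7% and 0.942%. Of the 372 nuclear genes with a repeat of at least 12 bases, 267 (71.8%) had a log2 fold change below 0 with TMM. Their median was −0.16, and 48.4% of all genes tested lay below 0. Transcript length was not held equal in this comparison. With total counts 39.0% of all genes lay above 0, and the share for the 372 was not taken. The cause was not tested. No mitochondrial gene could be placed beside the 372 by a fold change. Against a GAA repeat of 21 bases, the length of the ASO, the best window in the mitochondrial genes matched at 13 positions. The windows are shown to give the extent of the match, with the matching bases in capitals, at chrM:7344-7364 in MT-CO1, chrM:737-757 in MT-RNR1 and chrM:1788-1808 in MT-RNR2 (GRCh38, plus strand).
MT-CO1: aAAGtcctAatAGtAGAAGAA
MT-RNR1: cAcGAtcAAaAgGAAcAAGcA
MT-RNR2: cAAGggaAAGAtGAAaAAttA
The MT-CO1 window ended in a run of 7 matching bases, and mismatches interrupted the rest of it and the other windows. These are matches of letters and say nothing on binding.

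The respiratory complexes are built from mitochondrial and nuclear subunits, so the nuclear partners of the mitochondrial genes show what the same libraries held for these complexes. The 75 nuclear genes listed encode subunits, apart from ATP5IF1, which encodes an inhibitory factor of ATP synthase. All 75 were counted in all 4 libraries, beside 0 counts for the 13 mitochondrial subunits. They ran from 1.07 CPM (NDUFV2, a complex I subunit, in control replicate 2) to 2390 CPM. None passed an adjusted p of 0.05 in edgeR or in DESeq2, and at an unadjusted p of 0.05 0 were lower and 1 was higher in each tool. Of all genes, 3.46% were lower and 1.02% higher at that threshold in edgeR. Of the 75, 63 (84.0%) had a log2 fold change above 0, against 51.6% of all genes tested, and the median was 0.14, against 0.013 over all genes. These values depended on the scaling: with total counts in place of TMM, 44 (58.7%) lay above 0, against 39.0% of all genes, and the median was 0.047, against −0.081. With TMM factors, both anti-GAA libraries lay above both controls for 21 (28.0%), against 15.5% of all genes. They lay below both controls for 2 (2.67%), against 16.9%. These counts were not taken with total counts, and they too depended on the scaling. With total counts COX6B1, among the 21, overlapped, at 559.7 and 616.5 CPM against 571.3 and 557.4 CPM. NDUFA5, not among the 2, was below on that scale, at 53.99 and 49.85 CPM against 56.88 and 58.53 CPM. With TMM, the medians were 0.14 for the 37 genes of complex I, 0.19 for the 9 of complex III and 0.15 for the 11 of complex IV. For the 18 listed with ATP synthase, ATP5IF1 included, the median was 0.07. ATP5MC2, a gene of the ATP synthase c-ring next to which the MT-ATP6 protein sits, was at 413 and 363 CPM in anti-GAA and 277 and 254 CPM in control cells, with no overlap. Its log2 fold change was 0.64 (SE 0.21, unadjusted p = 0.017, adjusted p = 0.996 in edgeR). With the replicate number as a block its adjusted p in edgeR was 0.0347, in a fit that called 1.71% of all genes. NDUFS7, a complex I subunit, was at 11.2 and 13.6 CPM against 21.2 and 17.3 CPM, with a log2 fold change of −0.54 (SE 0.25, adjusted p = 0.996 in edgeR). NDUFA12 (0.37, SE 0.19) and NDUFV1 (−0.23, SE 0.20), both of complex I, did not pass the test either.

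Nuclear genes also transcribe, process and stabilise mitochondrial RNA. Of 50 such genes listed, 49 were matched and 48 tested, and 0 passed an adjusted or an unadjusted p of 0.05 in edgeR or in DESeq2. At the unadjusted threshold in edgeR, 3.46% of all genes were lower and 1.02% higher with anti-GAA. Of the 48, 27 (56.2%) had a log2 fold change above 0, against 51.6% of all genes tested. The median was 0.03, against 0.013 over all genes. Scaled to total counts, 21 (43.8%) lay above 0, against 39.0% of all genes, and the median was −0.06, against −0.081. With TMM factors, both anti-GAA libraries were above both controls for 7 (14.6%) and below them for 8 (16.7%), against 15.5% and 16.9% of all genes. These counts were not taken with total counts. On that scale MTERF3, among the 7, overlapped, at 87.1 and 90.5 CPM against 80.6 and 93.6 CPM. TRMT10C, not among the 8, was below on that scale, at 103.4 and 96.7 CPM against 124.5 and 111.3 CPM. POLRMT, the mitochondrial RNA polymerase, was at 59.6 and 41.0 CPM in anti-GAA and 54.4 and 37.1 CPM in control cells. TFAM, which packages mitochondrial DNA and starts its transcription, was at 54.3 and 62.2 CPM against 73.6 and 61.0 CPM. The groups overlapped for both. LRPPRC, which with SLIRP stabilises mitochondrial mRNAs, was at 138.7 and 160.8 CPM against 193.7 and 188.8 CPM, with both anti-GAA libraries the lower and a log2 fold change of −0.26 (SE 0.19). SLIRP was at 448 and 311 CPM against 462 and 296 CPM. TRMT10C, a subunit of mitochondrial RNase P, had a log2 fold change of −0.14 (SE 0.20), and PNPT1, the mitochondrial polynucleotide phosphorylase, of −0.16 (SE 0.23). On the higher side the smallest p-values went with GRSF1, MTPAP and SSBP1, which had log2 fold changes of 0.34, 0.29 and 0.36. GRSF1 is an RNA granule protein, MTPAP the mitochondrial poly(A) polymerase and SSBP1 the single-strand DNA-binding protein. On the lower side the smallest p-values went with MTO1, a tRNA-modifying enzyme, DNA2, a nuclease and helicase, and LRPPRC. MTO1 was at 36.7 and 39.6 CPM against 55.5 and 53.7 CPM, a log2 fold change of −0.42 (SE 0.20, adjusted p = 0.996 in edgeR). DNA2 had a log2 fold change of −0.49 (SE 0.34).

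**Figure D4:**
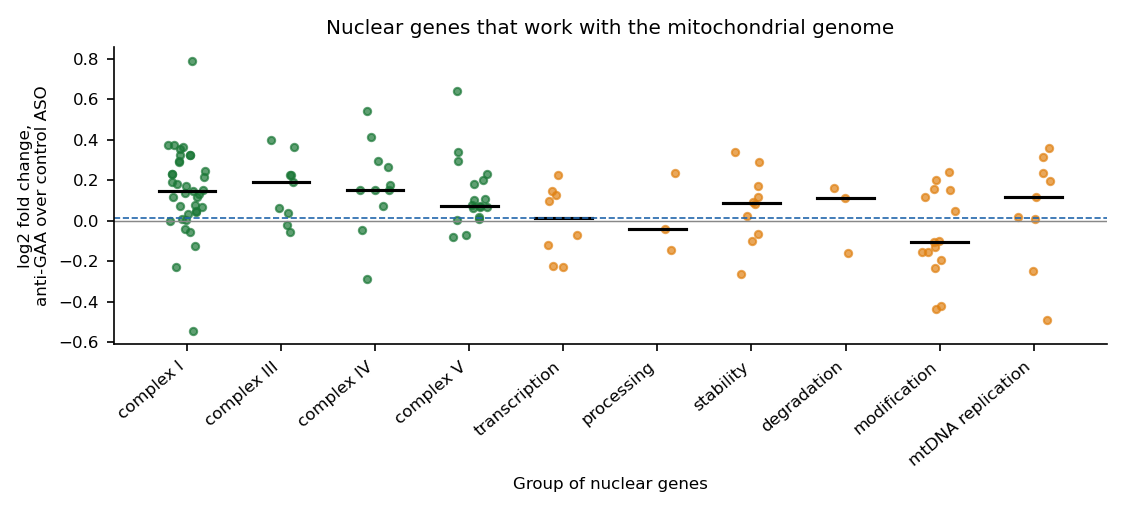
Each point gives the log2 fold change of anti-GAA over control ASO (y axis) of a nuclear gene, grouped on the x axis by respiratory complex (green) or by role in mitochondrial gene expression (orange). Black bars are group medians, from −0.11 for RNA modification to 0.19 for complex III, the dashed line is the median of all genes tested (0.013) and the solid line is 0.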

How the data were processed

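RNA-seq was made from HCT116 cells with anti-GAA or control ASO, 2 libraries each. The deposited values are raw counts per Ensembl gene. According to the methods and labels, the authors used Trimmomatic for trimming, STAR for alignment to hg19 and featureCounts for counting, after discarding reads on unplaced contigs. The strand setting, the treatment of reads with several matches and the annotation release are not given in the sources used here.

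Symbols, positions and sequences came from GENCODE 44 on GRCh38, joined by Ensembl identifier, which matched 52181 of 63677 genes. No coordinate was converted from hg19. Nuclear paralogs of MT-RNR2 could not be matched and are not analysed here, and no symbol matched a copy of an rRNA gene. Copies of tRNA genes were not searched for by symbol.

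Anti-GAA was tested against control with edgeR 4.0.16 (R 4.3.3; quasi-likelihood, TMM, filterByExpr, prior count 2, Benjamini-Hochberg over 15116 genes), with DESeq2 1.42.0 as an alternative. The script was tested on simulated data with the same dispersion for every gene and no effect of the replicate number, which differs from these libraries. Sums of CPM were compared by exact permutation in scipy 1.17.1. Windows were searched exactly, on both strands, in Python 3.11.15. Named were the 13 mRNAs and 2 rRNAs, nuclear copies with a mean of at least 1 CPM, 6 set genes of mitochondrial expression with the 3 of smallest p in each direction, and 2 respiratory genes in each direction. The genes and lists were chosen with earlier results of these data known. Other scalings, filters, a replicate block and the omission of each library were tried, and after the data were seen 75-base windows and a sum without MTATP6P1.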

Additional observations from a re-analysis of the deposited data

How the results depend on the processing

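No mitochondrial gene was called under any scaling, filter, tool or omission of a library, since 0 counts gave nothing to test. With the counts of nuclear copies added to their mitochondrial genes, 6 genes could be tested, 0 were called, and the share of all counts (total and mRNA alike) differed by −0.000967 percentage points, anti-GAA minus control. The ratio of heavy to light strand had no value under any alternative. Among the respiratory genes and the genes of mitochondrial expression, the alternatives called only ATP5MC2. It was called with the replicate block (0.64, adjusted p = 0.0347 in edgeR), where 1.71% of all genes were called. Each number in the labels is shared by an anti-GAA and a control library, and such libraries deviated together across 15116 genes (r = 0.564). The labels do not say what the number stands for. The main fit left it out and called 0 genes, whereas the fit with the block called 258. Within replicate 1 and replicate 2, the median log2 difference was 0.12 and 0.15 for the respiratory genes. It was 0.01 and 0.04 for the genes of mitochondrial expression, and −0.0041 and 0.02 over all genes.

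Leaving out 1 library at a time turned the direction of these log2 fold changes, given as lowest and highest: POLRMT −0.11 to 0.58, TFAM −0.28 to 0.063, SLIRP −0.23 to 0.50, PNPT1 −0.34 to 0.046, MTATP6P1 −1.03 to 2.36, MTCO1P12 −0.23 to 0.080, MTCO2P12 −0.20 to 0.36, MTCO3P12 −1.004 to 0.57 and MTND1P23 −0.030 to 0.20. The median of the genes of mitochondrial expression ran from −0.11 to 0.13 and that of the respiratory genes from 0.058 (without anti-GAA replicate 1) to 0.24 (without anti-GAA replicate 2). Without turning direction, SSBP1 ran from 0.10 to 0.68, MTPAP from 0.17 to 0.42, NDUFV1 from −0.39 to −0.076, TRMT10C from −0.26 to −0.020, MTND2P28 from −0.30 to −0.025 and NDUFS7 from −0.72 to −0.35. Scaling to total counts moved the median of the genes of mitochondrial expression to −0.06 and that of the respiratory genes to 0.047, with −0.081 over all genes. It also gave MTCO2P12 −0.031, MTCO3P12 −0.021 and MTND1P23 −0.013, and the replicate block gave MTATP6P1 0.41. The cause was not tested. Of 246 alternative values for 21 named genes, 226 kept their direction and their side of the threshold.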
